A study of Mus musculus with 2 samples.

Results

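The 9 genes described here, Arntl, Clock, Per1, Per2, Per3, Cry1, Cry2, Nr1d1 and Nr1d2, form the core loop of the circadian clock. They were chosen from the known parts of that loop with their values in these libraries in view, so that every difference between the libraries below is a description and carries no test. All 9 were present in the processed table, which lists 8551 genes. The data came from liver of male adult mice aged 9 weeks. There was 1 library from wild type C57BL/6 mice (the normal library) and 1 from db/db type 2 diabetic mice (the diabetic library). The text of the study does not give the strain background of the db/db mice. The db/db mouse lacks a working leptin receptor, eats in excess and becomes obese and diabetic. Both groups had free access to chow, and livers were removed about 3 h after the lights came on, so each gene was measured at 1 point of its daily rhythm and the height and the timing of a rhythm cannot be told apart. The mice were bought from a pair of suppliers, and the text of the study does not say which group came from which. The wild type mice are not described as littermates, so genotype cannot be told apart from source or from any difference in strain. It also does not say how many livers went into each library.

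The clock of liver cells is a transcriptional feedback loop. The proteins of Clock and Arntl (also called Bmal1) bind as a pair to E-box sequences and switch on the Period genes Per1, Per2 and Per3, the Cryptochrome genes Cry1 and Cry2, and Nr1d1 and Nr1d2, which encode the nuclear receptors REV-ERB alpha and REV-ERB beta. Period and Cryptochrome proteins return to the nucleus and block Clock and Arntl, while the REV-ERB receptors bind ROR elements (RORE) and repress Arntl, Clock and Cry1. In the liver of nocturnal mice fed freely, Arntl RNA is high around the end of the dark period and falls through the light period, Nr1d1 RNA climbs in the light period, and the Period genes reach their highest level near the change from light to dark.

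Levels were measured as tags. Complementary DNA primed with random hexamers on poly(A) RNA was cut with DpnII, whose site is GATC, and the short sequence next to a site was read and matched to a gene. The tag expected at the site nearest to the 3′ end of each gene was read from the GENCODE M21 transcripts (GRCm38) and is shown here with its GATC in capitals, because it is the sequence by which a transcript of that gene could be counted.
Arntl: GATCaagtagtcccagtaacg
Clock: GATCccctggagagcagttat
Per1: GATCcaggtccgtgaacccct
Per2: GATCctaagggtagatagaag
Per3: GATCcccgttttctctgcagt
Cry1: GATCtaattttgcagtctttg
Cry2: GATCatctgtccccccacctc
Nr1d1: GATCtgggaagacttctctat
Nr1d2: GATCatggtaggaaagatggc
These transcripts held between 2 DpnII sites (Nr1d1) and 19 (Clock). Of the 9 tags, 7 lay in the 3′ UTR, such as that of Per3 at chr4:151004172-151004192 on the minus strand. The tags of Arntl (chr7:113313504-113313524, plus strand) and Nr1d1 (chr11:98769815-98769835, minus strand) lay in coding sequence. In 0 other genes of the annotation was one of the 9 tags found next to a DpnII site, so the family members could be told apart by them. The reverse complement of a tag was likewise found in 0 genes. Exons of Nr1d1 overlap those of Thra on the opposite strand, and exons of Arntl and Cry2 overlap those of Gm45355 and D930015M05Rik, also on the opposite strand. The study tells tags that match a single gene from other tags, but which sites were counted and whether only single-gene tags entered the values is not stated, nor whether strand was used, so reads from such antisense partners cannot be told apart at other sites.

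The promoters bear on the wiring of the loop and were searched for the elements through which these genes regulate each other. RefSeq (GRCm38.p6) windows that run from 250 bases before the start site to 50 bases after it were at hand for 8 of the 9 genes, and Per2 had no entry. Clock had 3 windows, Arntl and Per1 had 2 each, and the others had 1 each. The letters searched on both strands were CACGTG (E-box), CACGTT (E-prime box), TTATGTAA (D-box), TAGGTCA and TGGGTCA (cores of the ROR element) and TGACGTCA (cAMP response element). At least 1 of them was found in 6 genes, whose sequences up to the start site are printed 5′ to 3′ with the matches in capitals. Of Arntl only the 30 bases around its match are shown.
Per1 (chr11:69098699-69098948, plus strand): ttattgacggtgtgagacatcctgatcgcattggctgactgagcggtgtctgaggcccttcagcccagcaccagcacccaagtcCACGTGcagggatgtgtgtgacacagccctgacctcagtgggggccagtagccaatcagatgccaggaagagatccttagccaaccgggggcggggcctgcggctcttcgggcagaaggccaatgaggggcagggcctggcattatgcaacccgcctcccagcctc
Per3 (chr4:151044666-151044915, minus strand): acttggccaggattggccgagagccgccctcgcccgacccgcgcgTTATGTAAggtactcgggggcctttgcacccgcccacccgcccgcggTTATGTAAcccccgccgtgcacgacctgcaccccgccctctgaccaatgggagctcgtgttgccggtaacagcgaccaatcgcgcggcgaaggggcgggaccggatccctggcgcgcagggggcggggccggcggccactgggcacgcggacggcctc
Cry1 (chr10:85185055-85185304, minus strand): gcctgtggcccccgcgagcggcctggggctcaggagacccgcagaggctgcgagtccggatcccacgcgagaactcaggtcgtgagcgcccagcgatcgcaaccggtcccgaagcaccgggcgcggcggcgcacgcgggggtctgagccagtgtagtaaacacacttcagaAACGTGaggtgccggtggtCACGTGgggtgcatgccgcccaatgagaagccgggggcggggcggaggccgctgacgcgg
Cry2 (chr2:92434070-92434319, minus strand): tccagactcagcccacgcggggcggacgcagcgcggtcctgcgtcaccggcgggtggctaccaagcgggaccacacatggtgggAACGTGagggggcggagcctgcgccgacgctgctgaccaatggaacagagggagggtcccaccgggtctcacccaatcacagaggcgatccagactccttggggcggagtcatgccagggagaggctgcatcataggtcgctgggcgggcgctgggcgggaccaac
Nr1d1 (chr11:98775378-98775627, minus strand): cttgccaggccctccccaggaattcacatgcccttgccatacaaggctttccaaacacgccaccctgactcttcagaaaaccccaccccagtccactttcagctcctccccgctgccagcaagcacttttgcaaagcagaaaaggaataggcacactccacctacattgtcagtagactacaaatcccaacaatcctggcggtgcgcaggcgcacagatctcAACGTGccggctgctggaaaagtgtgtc
Arntl (chr7:113207523-113207552, plus strand): tttagggaaggcagaaagTAGGTCAgggac
Per1 and Cry1 held an E-box, as did 7.15% of the 32851 windows in the table. An E-prime box was found in Cry1, Cry2 and Nr1d1, and in 4.68% of all windows. Per3 held 2 D-boxes, the element read by the output factors Dbp, Tef and Hlf, which was found in 0.938% of all windows. The Arntl match, a ROR core of the TAGGTCA form, lay downstream of the start site, and 2.61% of all windows held that core. The TGGGTCA core was in 3.98% and the cAMP response element in 1.79% of all windows, and in 0 windows of the 8 genes searched. The share of windows that held any of these elements was not computed, so the count of genes with a match has none beside it. All shares are per window, while the number of windows per gene differed. Each match is a match of letters only, and enhancers farther away were not searched.

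In diabetic mouse liver 5 of the 9 core clock genes were at least 1.5-fold higher than in normal liver, 1 was at least 1.5-fold lower and 3 differed by less. The higher genes were the 3 Period genes and both REV-ERB genes, and the lower gene was Arntl. By the same fold 34.4% of all listed genes were higher and 15.3% were lower. The table leaves out genes under a mean of 1 TPM. A gene under 1 TPM in 1 library was therefore listed only through a higher level in the other. Among the 9 genes this applies to Per3. The median log2 ratio was 0.98 over the 9 genes and 0.25 over all listed genes. Levels are given in TPM, here tags of a gene per 1000000 clean tags of its library with no division by transcript length, and levels of different genes are therefore not ranked against each other. Each TPM value was turned back into reads, and the 95% intervals are exact intervals of those reads that cover counting error only. With 1 library per group the spread between mice is unknown. In whole liver, fewer cells of a type and less RNA per cell cannot be told apart.

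**Figure D1:**
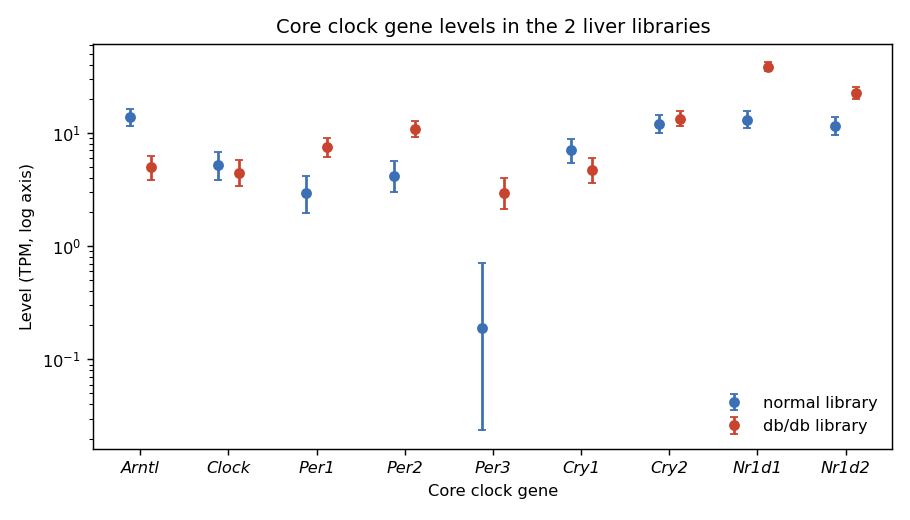
Level of each core clock gene in TPM (log axis) in the normal library (blue) and the diabetic db/db library (red), with exact 95% Poisson intervals of the reads. The intervals of the 2 libraries lie apart for Arntl, which was lower in the diabetic library, and for Per1, Per2, Per3, Nr1d1 and Nr1d2, which were higher.

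Among the activators, Arntl (Entrez 11865) stood at 13.7 TPM in normal liver (95% interval, 11.5 to 16.2) and at 4.96 TPM in diabetic liver (3.84 to 6.30), from 141 and 67 reads. The intervals did not overlap, and the level in diabetic liver was 2.77-fold lower, a log2 ratio of -1.47 (95% interval, -1.91 to -1.04). Only 3.06% of the listed genes had a lower log2 ratio. Its partner Clock (Entrez 12753), which encodes the other subunit of the activating pair, was at 5.16 TPM and 4.44 TPM, from 53 and 60 reads. The log2 ratio of Clock was -0.22 with an interval from -0.77 to 0.35, so at this depth no difference in Clock was detectable. The tags of Clock per tag of Arntl were 0.376 in the normal and 0.896 in the diabetic library, a change of 2.38-fold (1.45 to 3.92). Arntl had the lowest log2 ratio of the core clock genes, so this change is an increase by construction.

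The Period genes, which encode the repressor proteins that accumulate towards the night, were all higher in the diabetic library. For Per1 (Entrez 18626) the level was 2.92 TPM in normal liver (1.97 to 4.17) and 7.48 TPM in diabetic liver (6.09 to 9.09), from 30 and 101 reads. That was 2.56-fold higher, a log2 ratio of 1.36 (95% interval, 0.76 to 2.00). Per2 (Entrez 18627) was at 4.18 TPM (3.03 to 5.64) and at 10.8 TPM (9.13 to 12.7) in the same order, from 43 and 146 reads. Its log2 ratio of 1.37 (0.87 to 1.90), or 2.59-fold, nearly equalled that of Per1. The tags of Per1 per tag of Per2 were 0.698 in normal and 0.692 in diabetic liver. That was a log2 change of -0.01 with an interval from -0.82 to 0.81, or from 0.565-fold to 1.75-fold.

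Per3 (Entrez 18628), the Period gene that is not needed for a running clock in mice, was close to the limit of detection in normal liver. Its 2 reads in the normal library gave 0.190 TPM (0.0236 to 0.703), and its 40 reads in the diabetic library gave 2.96 TPM (2.12 to 4.03). The ratio of 15.6 (log2 ratio 3.96) was the highest of the 9 genes and the least certain, with an interval from 3.95-fold to 130-fold. With the normal library set to 3 reads, the limit used for genes with no reads, the ratio would be 10.1. Only 36 listed genes had a higher log2 ratio, at 0.421% of the table. At its level in normal liver Per3 could be listed only by being higher in the diabetic library, so its direction was set by that limit. Per3 had the fewest reads of the 9 genes in both libraries.

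**Figure D2:**
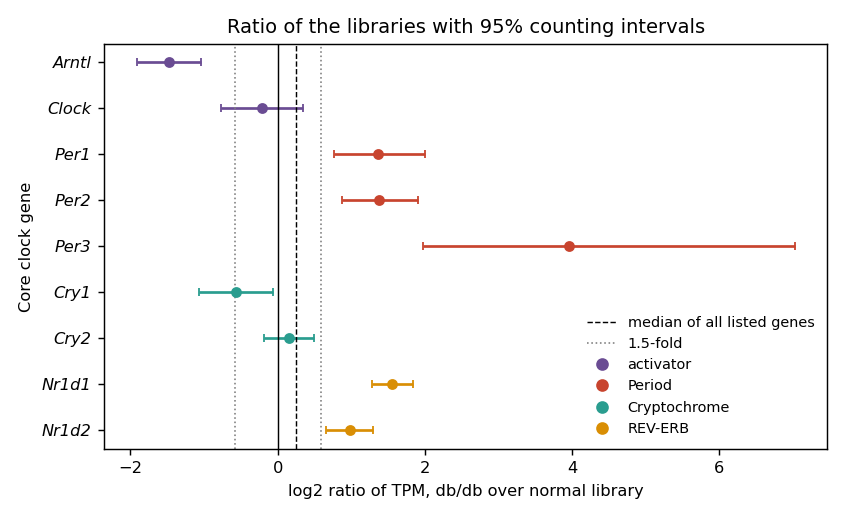
log2 ratio of TPM, diabetic over normal library, for each core clock gene, coloured by role, with 95% Clopper-Pearson intervals of the reads. The dashed line is the median of all listed genes, 0.25, and the dotted lines mark 1.5-fold. The 3 Period and both REV-ERB genes lie to the right of the upper dotted line with their whole intervals, Arntl lies to the left of the lower one, and the intervals of Clock and Cry2 span 0.

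The Cryptochromes, the Period proteins' partners in repression, differed less between the libraries. Normal liver held Cry1 (Entrez 12952) at 7.0 TPM (5.48 to 8.82) and diabetic liver at 4.74 TPM (3.65 to 6.05), from 72 and 64 reads. The intervals of the levels overlapped, and the log2 ratio of -0.56 (95% interval, -1.07 to -0.06), or 1.48-fold lower, fell just short of 1.5-fold. Cry2 (Entrez 12953) was at 12.1 TPM (10 to 14.4) and at 13.4 TPM (11.5 to 15.5), from 124 and 181 reads. Its log2 ratio was 0.15 with an interval from -0.19 to 0.49, so a difference of more than 1.41-fold in Cry2 lay outside the counting error. The tags of Cry2 per tag of Cry1 were 1.72 in the normal and 2.83 in the diabetic library, 1.64-fold more (1.07 to 2.52).

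The REV-ERB genes, whose products repress Arntl, had the most reads in the diabetic library. The level of Nr1d1 (Entrez 217166) was 13.1 TPM in normal liver (11.0 to 15.5) and 38.5 TPM in diabetic liver (35.3 to 42.0), from 135 and 520 reads. It was 2.93-fold higher, and its log2 ratio of 1.55 had the narrowest interval among the higher genes, 1.28 to 1.84. Nr1d2 (Entrez 353187) was at 11.5 TPM (9.50 to 13.7) and at 22.6 TPM (20.1 to 25.3), from 118 and 305 reads. Its log2 ratio was 0.98 (0.66 to 1.29), or 1.97-fold. Both paralogs were thus higher in diabetic liver, and the tags of Nr1d1 per tag of Nr1d2 went from 1.14 to 1.70, a 1.49-fold increase (1.11 to 2.00).

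The position of these genes among all listed genes depends on how the libraries are put on one scale, since the median listed gene was itself higher in the diabetic library. By trimmed mean of M values (TMM), which centres the bulk of genes, each log2 ratio is lowered by 0.25, and 3 further scalings lowered it by up to 0.31. All listed genes at least 1.5-fold different then split into 2054 higher and 2022 lower genes under TMM scaling, against 2941 and 1310 as deposited, so that 50.4% in place of 69.2% of them were higher. Under TMM scaling the same 5 core clock genes were at least 1.5-fold higher, beside 24.0% of all listed genes, and 2 were lower, beside 23.6%. The second lower gene was Cry1, with a log2 ratio of -0.81. Over the 4 scalings Arntl lay between -1.77 and -1.72, Nr1d1 between 1.25 and 1.30, Nr1d2 between 0.67 and 0.72, Per1 between 1.05 and 1.10, and Per2 between 1.07 and 1.12. Cry2 changed sign, to between -0.15 and -0.10, and Clock lay between -0.52 and -0.47.

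**Figure D3:**
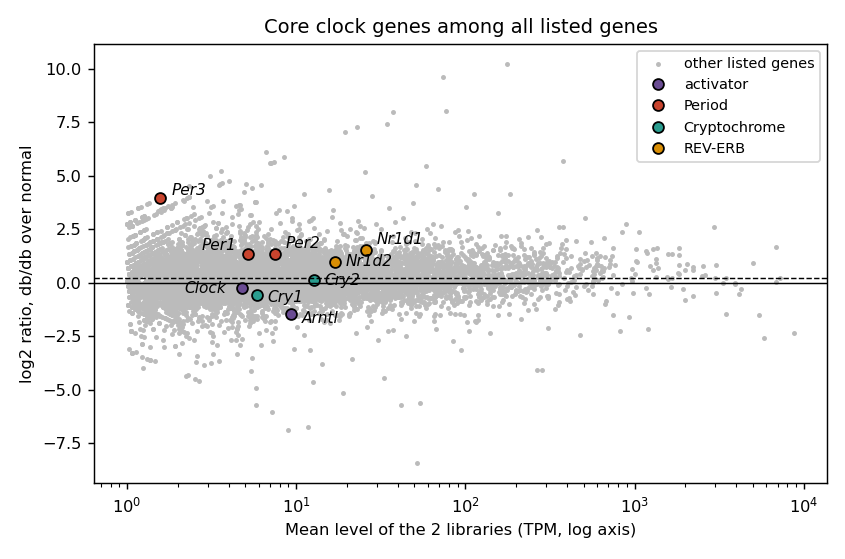
log2 ratio, diabetic over normal library, against the mean level of the 2 libraries in TPM (log axis) for all 8551 listed genes (grey), with the core clock genes coloured by role. The dashed line is the median of all listed genes, 0.25. Nr1d1, with 7.38% of genes above it, and Arntl, with 3.06% below it, lie towards the edges of the cloud, and Cry2 lies in its middle.

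A ratio of tags of 2 genes in the same library does not depend on that scale. Each of the other 8 genes was therefore set against Arntl, the gene of the activator and the target of the REV-ERB receptors. These are ratios of tag counts and not of RNA amounts. Nr1d1 had 0.957 tags per tag of Arntl in normal liver and 7.76 in diabetic liver, 8.11-fold more (95% conditional exact interval, 5.65 to 11.7). For Nr1d2 the numbers were 0.837 and 4.55, 5.44-fold more (3.74 to 7.93). Per1 went from 0.213 to 1.51 tags per tag of Arntl, and Per2 from 0.305 to 2.18, a change of 7.09-fold (4.18 to 12.1) and of 7.15-fold (4.46 to 11.5). Per3 went from 0.0142 to 0.597, with a wide interval of the change from 10.3-fold to 365-fold. Cry2 went from 0.879 to 2.70, 3.07-fold more (2.09 to 4.53), and Cry1 from 0.511 to 0.955, 1.87-fold more (1.17 to 2.99). Arntl had the lowest log2 ratio of the 9 genes, so each of these changes is above 1 by construction. That choice also raises their sizes and shifts their intervals upward. They all share the 141 and 67 reads of Arntl and are not independent of each other. Cry1, with a log2 ratio of -0.56 of its own, was higher only relative to Arntl.

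**Figure D4:**
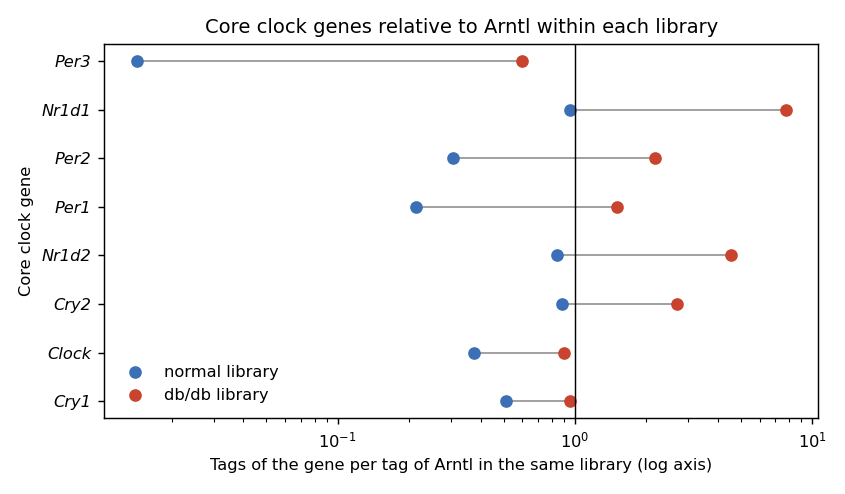
Tags of each core clock gene per tag of Arntl in the same library (log axis), in the normal library (blue) and the diabetic library (red). All 8 genes lie to the left of 1 in the normal library, and 5 of them (Nr1d1, Nr1d2, Cry2, Per2 and Per1) lie to the right of 1 in the diabetic library.

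Clock genes were also grouped by the element best known to drive them, in lists drawn up with their values known. The grouping comes from general knowledge and not from the motif search above, in which Cry1 held E-box letters and no ROR core, Per3 only D-boxes, and Nr1d2 and Clock no match. A list of 12 E-box driven genes held Per1, Per2, Per3, Cry2, Nr1d1 and Nr1d2 of the core loop and Dbp, Tef, Hlf, Bhlhe40, Bhlhe41 and Ciart outside it. Of these 11 were listed, 10 were at least 1.5-fold higher in the diabetic library and 0 were lower, beside 34.4% and 15.3% of all listed genes. The median log2 ratio was 1.37. Per3, Dbp and Ciart, each under 1 TPM in the normal library, could be listed only by being higher in the diabetic library. Under TMM scaling 9 were at least 1.5-fold higher, beside 24.0% of all listed genes, Hlf being the gene that dropped below, and the median was 1.12. Cry1 is driven through both elements and was counted under RORE. With Cry1 added to the E-box list, an alternative chosen after seeing the data, 10 of 12 were higher and 0 lower (median 1.36), or 9 higher and 1 lower under TMM scaling (median 1.11). A list of 5 RORE driven genes held Arntl, Clock and Cry1 and, outside the core loop, Npas2 and Nfil3. The 3 listed were the core loop genes, of which 0 were higher and 1, Arntl, was at least 1.5-fold lower, with a median of -0.56. Of all listed genes 15.3% were lower. Under TMM scaling 2 of the 3 were lower, beside 23.6% of all listed genes, and the median was -0.81. Npas2, Nfil3 and Bhlhe41 were not analysed here.

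The 5 listed E-box driven genes outside the core loop were all at least 1.5-fold higher in the diabetic library. Of these, Dbp and Ciart had 0 reads in the normal library and could be listed only by being higher in the diabetic library. Their direction was thus set by the minimum mean of the table. Dbp (Entrez 13170), an output factor that binds D-boxes, had 0 reads in the normal library, where the limit of 3 reads is 0.292 TPM and the exact interval reaches 0.359 TPM, and 191 reads or 14.1 TPM in the diabetic library. Set against 3 reads in the normal library it was at least 48.4-fold higher, and with the counting error of both libraries the lower 95% limit of its ratio was 39.0. Tef (Entrez 21685), a factor of the same family, was at 9.34 TPM and at 54.0 TPM, from 96 and 730 reads, 5.79-fold higher (log2 ratio 2.53, 95% interval 2.22 to 2.86). Hlf, the third of that family, was at 2.72 and 4.81 TPM, from only 28 and 65 reads, with a log2 ratio of 0.82 (0.16 to 1.52). Ciart (Entrez 229599, listed as Gm129), which encodes a repressor of Clock and Arntl, had 0 and 61 reads and was at least 15.5-fold higher against 3 reads, with a lower 95% limit of 12.2. Bhlhe40 (Entrez 20893), a further E-box repressor, was at 23.6 and 52.4 TPM, 2.22-fold higher with a log2 ratio of 1.15 (0.94 to 1.36).

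**Figure D5:**
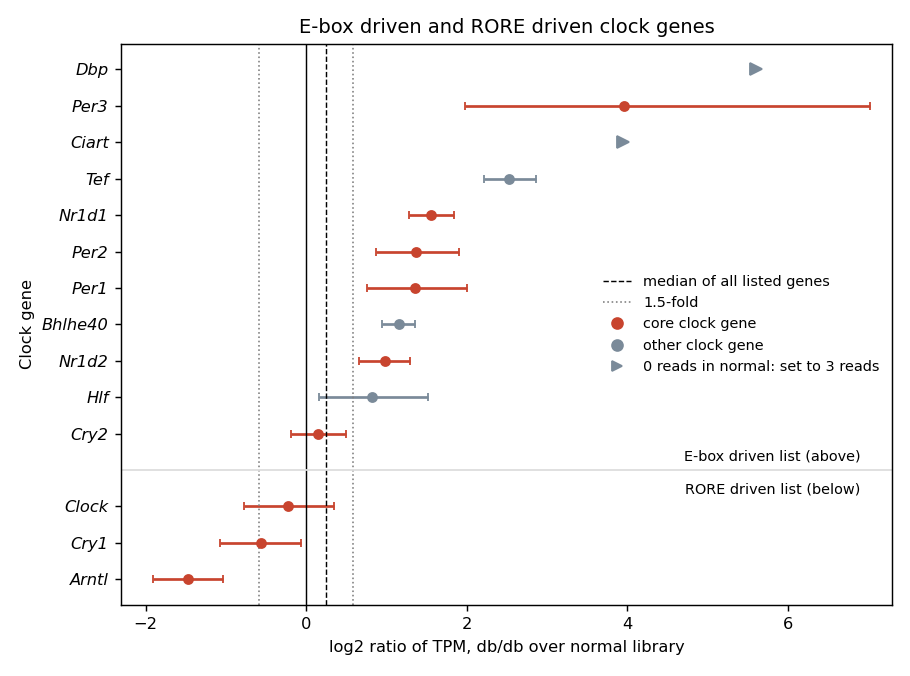
log2 ratio of TPM, diabetic over normal library, for the listed E-box driven and RORE driven clock genes, with 95% Clopper-Pearson intervals. Red points are core clock genes, and triangles are ratios against 3 reads for genes with 0 reads in the normal library. The 10 uppermost E-box driven genes lie to the right of 1.5-fold, and of the RORE driven genes Arntl lies to the left of it.

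The proteins that modify or assist the clock gave mixed values. Of 14 kinases and phosphatases that act on clock proteins 10 were listed, of which 2 were at least 1.5-fold higher and 1 lower. The shares of all listed genes were 34.4% higher and 15.3% lower. The median log2 ratio of the 10 was -0.19. Csnk1d, a casein kinase that marks Period proteins for breakdown, was at 8.95 and 8.88 TPM, and its log2 ratio of -0.01 had an interval from -0.41 to 0.40. Csnk1e, its close relative, had 26 and 25 reads and a log2 ratio of -0.45 (-1.30 to 0.40). Gsk3a was 1.92-fold higher, while Gsk3b, which phosphorylates REV-ERB alpha, had a log2 ratio of -0.57 (-0.90 to -0.23). Under TMM scaling 1 of the 10 was higher and 5 were lower, beside 24.0% and 23.6% of all listed genes.

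Of 11 genes of ubiquitin ligases and deubiquitinating enzymes 6 were listed, 2 were at least 1.5-fold higher and 0 lower, with a median log2 ratio of 0.38. Of all listed genes 34.4% were higher and 15.3% lower. Usp2, a deubiquitinating enzyme and a known rhythmic target of the clock, had 0 and 96 reads, at least 24.4-fold more in diabetic liver against 3 reads, with a lower 95% limit of 19.4. With 0 reads in the normal library, Usp2 too could be listed only by being higher in the diabetic library. Skp1a, a subunit common to many ubiquitin ligases, was at 103 and 253 TPM, 2.47-fold higher. Fbxw11, an F-box protein that recognises phosphorylated Period proteins, had a log2 ratio of 0.29 (-0.08 to 0.66).

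Of 20 corepressors, coactivators and related regulators 13 were listed, and their median log2 ratio was -0.01. At least 1.5-fold higher were 3 and lower 1, beside 34.4% and 15.3% of all listed genes. Hdac3, the histone deacetylase through which REV-ERB represses, was at 38.0 and 59.0 TPM, a log2 ratio of 0.63 (0.46 to 0.81). Nampt, which makes the NAD precursor used by the deacetylase Sirt1, was at 33.0 and 57.4 TPM, 1.74-fold higher. Sirt1 itself was at 8.17 and 5.33 TPM, 1.53-fold lower (log2 ratio -0.62, -1.09 to -0.15). Crebbp was 2.67-fold higher from only 6 and 21 reads, and at 0.580 TPM in normal liver it could be listed only by being higher in the diabetic library. Under TMM scaling 1 of the 13, Crebbp, was higher and 2 were lower, beside 24.0% and 23.6% of all listed genes. Hdac3, at 0.38, and Nampt, at 0.55, then fell short of 1.5-fold. Over 34 listed clock genes outside the core loop, 12 (35.3%) were at least 1.5-fold higher, beside 34.4% of all listed genes, and 2 (5.88%) were lower, beside 15.3%, with a median log2 ratio of 0.18. Under each of the 4 scalings 8 of the 34 were higher and 7 lower, and under TMM 24.0% of all listed genes were higher and 23.6% lower. A list of accessory transcription factors shares Bhlhe40 and Ciart with the lists above, and its other 6 genes were not analysed here.

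As a check of the tissue, the hepatocyte marker Alb was at 6801 and 6912 TPM, and the 5 listed hepatocyte markers summed to 9048 TPM in normal and 9047 TPM in diabetic liver. That sum is mostly Alb, and single markers went both ways, with Hnf4a 2.10-fold lower (96.8 and 46.2 TPM) and Cps1 2.43-fold higher (130 and 317 TPM). The 5 listed of 7 Kupffer cell and macrophage markers were all below 0 on the log2 scale. The intervals of Cd68 (-0.87 to 0.42) and Clec4f (-1.53 to 0.74) spanned 0. At least 1.5-fold lower were 3 of the 5, beside 15.3% of all listed genes. The summed level of the 5 was 40.3 TPM in normal and 21 TPM in diabetic liver. Summed levels in the same order were 101 and 91.8 TPM for 6 endothelial markers, 85.6 and 114 TPM for 5 stellate markers, 4.28 and 4.22 TPM for 2 cholangiocyte markers, 0.680 and 1.33 TPM for 1 lymphocyte marker and 51.9 and 44.2 TPM for 1 erythroid marker. Of the endothelial markers 2 were at least 1.5-fold higher (Kdr and Lyve1) and 1 lower (Clec4g). Among the stellate markers 1 was higher (Col1a1) and 1 lower (Reln). By that fold 34.4% of all listed genes were higher and 15.3% lower. None of the listed markers was at 0 reads. The part of cell composition in the clock gene ratios was not tested.

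With only 2 libraries, likeness between genes comes down to 1 ratio. Among genes whose 2 libraries averaged 10 TPM or more, the log2 ratios nearest to that of Arntl were those of Ptprj, Fgg and Ak3, each at -1.47. Nearest to Per3 were LOC100045065 at 4.04, Mt1 at 4.13 and Cd36 at 4.15. Mt1 had 203 and 4683 reads and Cd36 had 124 and 2883, so their ratios had intervals of 3.93 to 4.34 and of 3.89 to 4.42, inside the wide interval of Per3.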

How the data were processed

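The authors isolated poly(A) RNA from liver, cut the cDNA with DpnII, sequenced tags on an Illumina 1G sequencer, removed adaptors and low-quality reads, and compared the clean tags with RefSeq. The submitters' processing notes name the build mm9, while the aligner and the mismatches allowed are not given in the sources used here. The deposited values, called TPM by the authors, are RPM values, tags of a gene per 1000000 clean tags, rounded to 2 decimals. Genes under a mean of 1 TPM are left out (the lowest listed mean was 1.005). A value of 0.01 was taken here as 0 reads. Above it the lowest count in each library was 2 reads, as for Per3 in the normal library, so 0.01 may also stand for 1 read. The limits given for genes at 0 reads do not allow for that. Values rise in steps of 0.0973 TPM in the normal and 0.0740 TPM in the diabetic library, the value of 1 read, from which 10278530 and 13508232 clean tags were estimated. Within 0.0051 TPM, 8513 of 8513 and 8536 of 8537 values above 0.01 were whole reads, and the listed genes held 37.1% and 44.4% of the clean tags. The median listed gene had 71 and 111 reads, and the 9 genes together 718 and 1484. Columns of values not used numbered 0.

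From these values, log2 ratios were computed as diabetic over normal TPM, with exact 95% Poisson intervals for levels, Clopper-Pearson intervals for ratios and conditional exact intervals for ratios of tags of 2 genes. Tags carry no molecular identifiers, and the intervals reflect counting error alone. Where a gene had 0 reads it was set to 3 reads, and its ratio is a bound. For Per3, at 2 reads, the ratio and its interval are given together with the value at 3 reads, where the design had named a bound alone. No test was run on the clock genes, because each group is 1 library. The clock genes, lists and rules were chosen with earlier results of these data known. Genes named are the 9 members, listed genes of the clock and marker lists, and the 3 genes averaging 10 TPM or more that were nearest in log2 ratio to the highest and to the lowest member. One result on a gene of the clock lists is not reported here, and that gene was taken out of the counts and medians of its lists. List symbols were matched to the table by symbol or, through the RefSeq gene table of GRCm38.p6, by Entrez identifier, and 8317 of 8551 identifiers matched it. Gene positions, tags and promoters are on GRCm38, not on mm9.

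Alternatives were scaling to the sum of listed genes, by TMM (trimming 30% of log ratios and 5% of abundances at each end), by median ratio (over genes averaging 10 TPM or more) and by upper quartile (75th percentile), a pseudocount of 0.1 TPM or of 1 TPM, a fold of 2, a minimum mean of 5 TPM and, over all listed genes, an exact binomial test of the reads at a false discovery rate (FDR) under 0.001, a comparison of these 2 libraries rather than of the conditions. The computation was tested on simulated reads. Intervals came from scipy 1.17.1, and tables and plots from pandas 2.3.3, matplotlib 3.10.9 and numpy 2.4.6 under Python 3.11.15.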

Additional observations from a re-analysis of the deposited data

How the results depend on the processing

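Of 54 log2 ratios of the 9 core clock genes recomputed under another scaling or pseudocount, 52 stayed within their counting interval. The exceptions were Nr1d1 under median-ratio scaling, at 1.25, and Per3 with a pseudocount of 1 TPM, at 1.73. Most intervals were wider than the shifts of 0.25 to 0.31, so staying within them reflects low read counts. Of the 6 genes past 1.5-fold 0 changed sign, but neither such shifts nor a pseudocount could reverse ratios of that size. Cry2, short of 1.5-fold, changed sign under the 4 scalings. The number of core clock genes at least 1.5-fold lower went from 1 to 2 under each of the 4 scalings, which lower every log2 ratio by construction. Under those scalings 7 of the 34 other clock genes were lower, in place of 2. All listed genes at least 1.5-fold lower then numbered 2044 (sum of listed genes), 2022 (TMM), 2189 (median ratio) and 2076 (upper quartile), and 1874 were higher under median-ratio scaling.

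With a minimum mean of 5 TPM, which leaves out Per3 and Clock, 1773 listed genes were higher and 658 lower, and 1 other clock gene was lower. With a pseudocount of 1 TPM 0 other clock genes were lower. At a fold of 2, 4 in place of 5 core clock genes were higher, without Nr1d2, 1589 listed genes were higher and 582 lower, and 7 other clock genes were higher and 0 lower. With the exact binomial FDR added, 1955 were higher and 700 lower. No paired analysis was possible because each group is 1 library. Depth limits Per3 most, with 2 reads in the normal library, and next Per1, Per2, Clock and Cry1, with 30 to 72 reads there.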
